A study of Mus musculus with 12 samples.

Results

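The TRAF adaptors, the cIAP ubiquitin ligases and the caspase inhibitor c-FLIP form the layer of signalling that sits directly below receptors of the tumour necrosis factor (TNF) type. Their chromatin in mouse microglia is described here through 7 genes, namely Traf1, Traf2, Traf3 and Traf5 for the adaptors, Birc2 and Birc3 for the ligases cIAP1 and cIAP2, and Cflar for c-FLIP. The regions of these genes are all those for which the deposited signal table gives one of the 7 symbols as the nearest gene. That assignment picked 110 of 104981 regions: 38 for Cflar, 18 for Traf5, 15 for Traf1, 13 for Birc3, 11 each for Birc2 and Traf3, and 4 for Traf2. The name says only which gene lies nearest, since the series holds no measure of transcripts.

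When a TNF-type receptor binds its ligand, TRAF2 and TRAF5 join the receptor complex and bring in the cIAP ligases, which attach ubiquitin chains to RIPK1 and so open the way to the canonical NF-kB pathway. TRAF1 is an adaptor without a RING domain that binds TRAF2 and the cIAPs, whereas TRAF3 holds the noncanonical pathway in check by directing TRAF2 and the cIAPs to the kinase NIK. Loss of the cIAPs turns the same complex toward cell death through caspase-8, and c-FLIP, a relative of caspase-8 that lacks its activity, blocks that step. Traf1, Birc3 and Cflar are textbook targets of NF-kB. The receptor of interleukin-33 (IL-33), ST2, signals through MyD88 and a different family member, TRAF6.

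Acetylation of histone H3 at lysine 27 (H3K27ac), a mark of active promoters and enhancers, was measured by chromatin immunoprecipitation and sequencing in microglia of the cortex. IL-33 or vehicle had been given into a cerebral ventricle on 1 side of mice at postnatal day 30, and the animals were killed 4 h later, so every mouse, vehicle mice included, carried an injection. Cells were kept cold, enriched by Percoll and sorted as microglia. The libraries came from 4 female mice (mice 3, 4, 7 and 8) and 4 male mice (mice 1, 2, 5 and 6), 1 library per mouse. The labels name the sex of each mouse and give no strain, genotype or treatment for a single mouse. IL-33 could therefore be set against vehicle only through the authors' deposited table of distal regions, and the libraries could be compared only by sex.

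Female libraries held 2155209 to 4133042 tags and male libraries 5160915 to 10019606 tags, and the median 500 bp region held 2 to 4 reads in female and 5 to 10 reads in male libraries. The summed promoter signal of 10 microglial markers was 1910 to 2800 scaled tags in female and 1550 to 1970 in male libraries. Promoter regions were found for 2 of 6 markers of monocytes and border macrophages (32.3 to 60.3 in female, 19 to 50.4 in male libraries), 6 of 7 of the oligodendrocyte lineage (26.6 to 111 and 30 to 68.2, Olig1 at 0 throughout) and 3 of 5 of vessel cells (44.0 to 97.5 and 52.9 to 71.3). The neuronal markers with a promoter region, 2 of 6, summed to 0 in female and to at most 5.81 in male libraries, and those of astrocytes, 2 of 5, to 0 and at most 8.02. Those of lymphocytes, 1 of 4, and neutrophils, 1 of 3, reached at most 4.64 tags in female and 3.44 in male libraries. In bulk chromatin, more cells that carry the mark and more mark per cell cannot be told apart.

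The start sites of these genes differ widely in base composition, and 4 of them are shown because the results turn on them. They run 300 bases, 250 before and 50 after the annotated start, 5′ to 3′ on the gene's strand, from RefSeq on GRCm38.p6, and capitals mark CpG dinucleotides. The Traf3 window (chr12:111166120-111166419, plus strand) is 84.0% G and C with 59 CpG. The Cflar window (chr1:58711241-58711540, plus strand) has 45.0% and 12 CpG, the Birc3 window (chr9:7873121-7873420, minus strand) 43.0% and 7 CpG, and the Traf1 window (chr2:34961723-34962022, minus strand) 48.7% and 4 CpG.
Traf3: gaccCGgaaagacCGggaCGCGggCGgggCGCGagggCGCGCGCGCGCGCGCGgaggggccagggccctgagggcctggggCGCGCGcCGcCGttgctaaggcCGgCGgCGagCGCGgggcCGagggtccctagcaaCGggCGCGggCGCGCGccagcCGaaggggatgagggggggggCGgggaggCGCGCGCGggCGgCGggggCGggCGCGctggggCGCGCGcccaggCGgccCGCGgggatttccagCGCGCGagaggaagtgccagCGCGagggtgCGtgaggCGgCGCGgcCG
Cflar: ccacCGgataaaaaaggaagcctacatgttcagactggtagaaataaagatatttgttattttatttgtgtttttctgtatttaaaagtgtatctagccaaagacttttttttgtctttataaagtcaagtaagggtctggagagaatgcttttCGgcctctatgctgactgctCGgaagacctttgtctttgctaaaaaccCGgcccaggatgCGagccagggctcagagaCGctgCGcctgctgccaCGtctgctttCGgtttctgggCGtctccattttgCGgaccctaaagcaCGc
Birc3: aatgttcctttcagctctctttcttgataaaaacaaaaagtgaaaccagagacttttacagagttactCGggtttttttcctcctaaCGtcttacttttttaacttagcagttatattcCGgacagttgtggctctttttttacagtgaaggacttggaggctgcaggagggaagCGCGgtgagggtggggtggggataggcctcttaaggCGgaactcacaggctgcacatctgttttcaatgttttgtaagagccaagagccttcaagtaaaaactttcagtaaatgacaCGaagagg
Traf1: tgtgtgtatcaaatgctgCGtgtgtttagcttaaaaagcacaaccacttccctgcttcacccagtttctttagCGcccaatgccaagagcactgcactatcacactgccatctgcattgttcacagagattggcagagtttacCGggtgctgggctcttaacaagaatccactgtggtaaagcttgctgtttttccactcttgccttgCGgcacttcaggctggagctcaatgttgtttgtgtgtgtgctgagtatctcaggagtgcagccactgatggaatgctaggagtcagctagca
The Traf3 window stood at the 99.8th percentile of G and C content among 32851 start site windows. The windows of Traf2, Traf5 and Birc2 lay between these, at 64.0, 63.7 and, for the main Birc2 start, 67.0% G and C. The NF-kB consensus was matched in 1 of the 8 windows of these genes, by GGGGATTTCC in the 10 bases that end at the Traf3 start site, and in 8.46% of all windows. PU.1, a macrophage transcription factor, was represented by GAGGAAGT, which was found in 1 of the 8 windows, beginning 9 bases past the Traf3 start, and in 3.2% of all windows. The AP-1 motif TGANTCA was matched in 0 of the 8 windows and in 7.81% of all windows. Each motif was searched on both strands, and a match describes letters only.

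At the start sites themselves, H3K27ac was strong at Cflar and near absent at Traf1, while Traf3 carried it in male libraries and hardly at all in female ones. Levels are scaled tags per region of 500 bp, so regions of equal length are compared. Among 22160 regions within 1000 bp of a start site, with a median of 37.9 tags, the Cflar promoter averaged 365 tags over the 8 libraries and lay at the 99.5th percentile. Birc2 followed with 194 tags (93.5th percentile), then Birc3 with 153 (88.7th), Traf5 with 111 (80.5th) and Traf2 with 91.6 (74.7th), and Traf1 had 9.62 tags, at percentile 26.2. Traf3 has no single place in this order, since its promoter averaged 2.20 tags in female libraries, below the 9.12 of Traf1, and 122 in male libraries, the same as Birc3 and above the 95.4 of Traf5 and the 99.4 of Traf2.

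The single libraries show which of these steps exceed the spread. At the Cflar promoter the female libraries had 346, 472, 390.2 and 455 tags in mice 3, 4, 7 and 8, and the male libraries 364, 291, 315 and 289 in mice 1, 2, 5 and 6. Birc2 had 223, 288, 164 and 223 tags in the female and 165, 164, 180.3 and 141 in the male libraries. The lowest Cflar value was thus just above the highest of Birc2, while female and male values overlapped at both genes.

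Birc3 had 161, 259, 217 and 97.4 tags in the female libraries, against 132, 109, 148 and 101 in the male ones. Traf5 had 109, 133, 151 and 116 tags in the female and 78.9, 85.9, 114 and 103 in the male libraries. Traf2 had 70.4, 102, 75.3 and 88.2 tags in the female and 139.7, 75.6, 89.1 and 93.0 in the male libraries. Neighbours in the order from Birc2 through Birc3 and Traf5 to Traf2 overlapped, and female and male values overlapped at each of these genes. Traf3 had 8.80, 0, 0 and 0 tags in female mice 3, 4, 7 and 8, and 189, 102, 83.9 and 112 in male mice 1, 2, 5 and 6, with no overlap between the sexes. At Traf1 the region in the first exon had 26.4, 7.26, 2.79 and 0 tags in the female and 15.0, 18.3, 5.24 and 1.94 in the male libraries, all below the lowest Traf2 value.

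**Figure D1:**
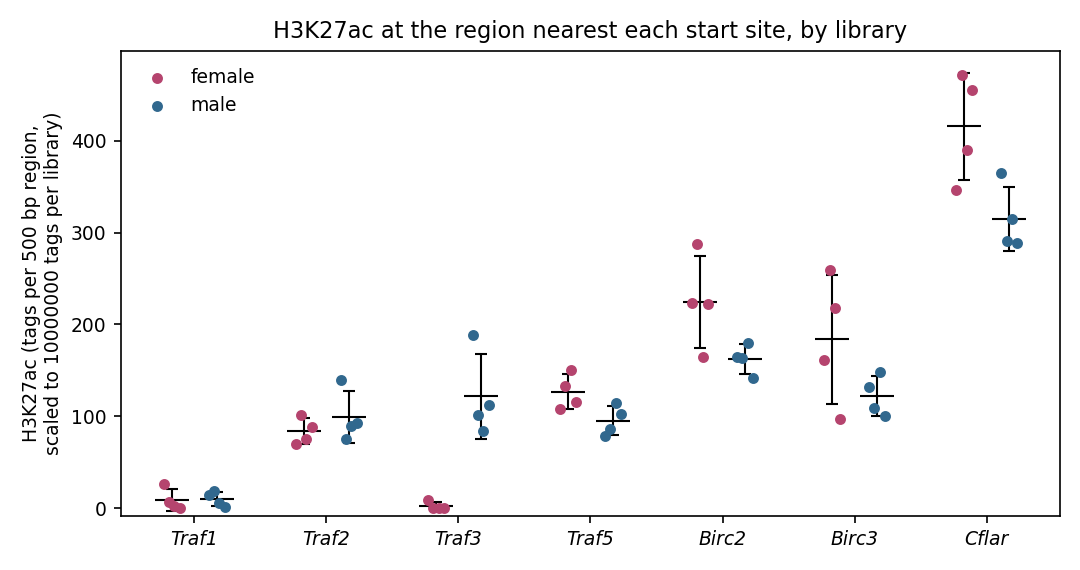
H3K27ac at the region nearest the start site of each gene, in tags per 500 bp region scaled to 10000000 tags per library; points are single mice, female left of male, with mean and SD over 4 mice each. Cflar lies highest in both sexes and Traf1 is near 0 in both, and at Traf3 the female points lie at or near 0 while the male points lie between 83.9 and 189 tags.

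The comparison of IL-33 with vehicle asked which distal regions of these genes gained or lost the mark within 4 h. Of the 110 regions, 65 stand in the authors' deposited table, all more than 3000 bp from a start site, and 59 of them have an adjusted p. At an adjusted p under 0.05, 28 of these 59 regions rose and 0 fell per the authors' deposited table, where rises make up 10.2% and falls 7.99% of all 40352 tested regions. The name of the authors' comparison ties its regions to ATAC-seq, which maps accessible chromatin. The peak sets therefore need not be sets of H3K27ac peaks. Of the 28 rises, 17 lay in the 25 tested regions that were found in the IL-33 peak set only and so were picked on the IL-33 side. Over all regions of that kind 22.3% rose and 3.19% fell per the authors' deposited table. Among regions found in both peak sets, 10 of 31 rose (32.3%) and 0 fell, beside 8.1% and 8.51% of all such regions per the authors' deposited table, with a median of 0.31 beside -0.06. At an unadjusted p under 0.05, 30 of the 59 regions lay above 0 and 1 below it per the authors' deposited table. The share of all tested regions at that unadjusted threshold was not computed, so these unadjusted counts do not set the genes apart. The median log2 fold change of IL-33 over vehicle was 0.61 for the 59 regions, beside -0.01 for all tested regions of the authors' deposited table. Cflar supplied 17 of the 28 rises, and without it 11 of 32 regions (34.4%) rose with a median of 0.23, as computed from the authors' deposited table. Those 11 include regions found in the IL-33 peak set only, 4 at Traf1, 2 at Birc3 and 1 at Traf2. Of the 10 rises found in both peak sets, Cflar supplied 6. Outside Cflar, 2 of 2 such regions rose at Birc3, 1 of 5 at Traf1, 1 of 3 at Traf3 and 0 of 8 at Traf5 per the authors' deposited table.

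The gain was spread unevenly over the 7 genes. By the authors' deposited table, 17 of 27 tested regions rose at Cflar, 5 of 10 at Traf1, 4 of 5 at Birc3, 1 of 5 at Traf3, the single tested region at Traf2 and 0 of 11 at Traf5. Birc2 has 1 region in the authors' deposited table, with no adjusted p, so nothing can be said of its response. Whether the genes differ from each other in their response was not tested.

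**Figure D2:**
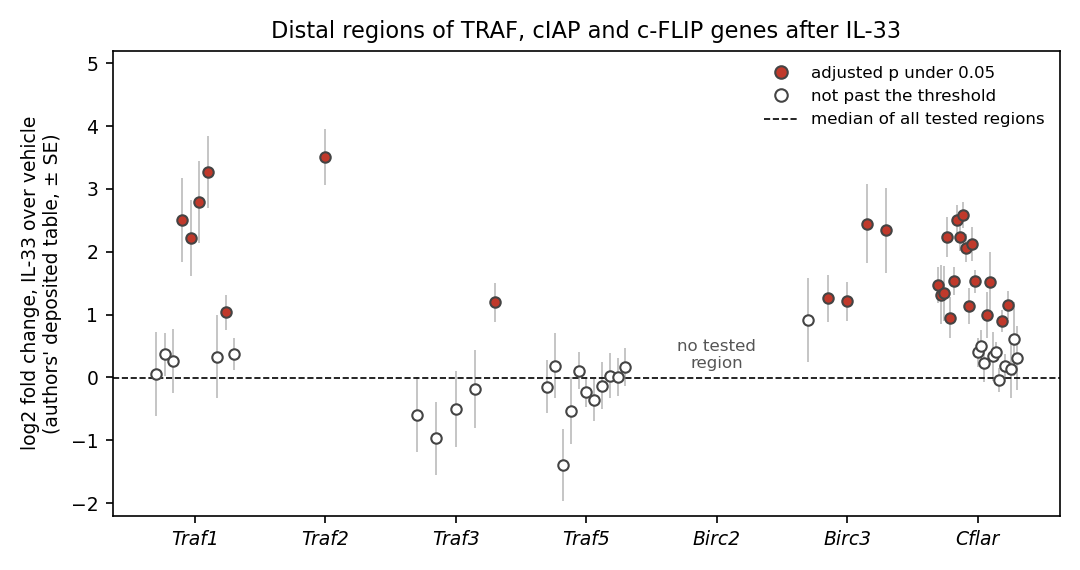
Log2 fold change of IL-33 over vehicle (± SE) for the 59 tested distal regions, from the authors' deposited table, by nearest gene and, within a gene, by position; filled points have an adjusted p under 0.05 and the dashed line is the median of all tested regions. The filled points of Traf1, Traf2, Traf3, Birc3 and Cflar all lie above 0, between 0.90 and 3.51, and Traf5 has no filled point.

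Among the adaptors, Traf2 held the largest change. Its tested region lies in intron 4 (chromosome 2, 25534137 to 25534637, build mm10), 12.6 kb from the start site, and was found in the IL-33 peak set only. Female libraries had 73.4, 111, 11.2 and 4.64 tags there in mice 3, 4, 7 and 8, and male libraries 78.9, 64.1, 2.10 and 3.88 in mice 1, 2, 5 and 6. The female and male ranges overlapped widely, with mice 3 and 4 and mice 1 and 2 high in their sexes. The authors' deposited table gives the region a log2 change of 3.51 (adjusted p = 1.91e-12, SE 0.45), with log2 group values of 5.36 for IL-33 and 1.73 for vehicle. The Traf2 promoter, described above, varied far less between mice and is outside the authors' deposited table.

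At Traf1, whose start site carried almost no mark, 4 of the 5 risen regions of the authors' deposited table lie inside the gene and 1 lies 14.9 kb upstream of the start. The 4 inside the gene were found in the IL-33 peak set only, and of the 5 tested Traf1 regions found in both sets, 1 rose per the authors' deposited table. The largest, in intron 3 (chromosome 2, 34958444 to 34958944, 3078 bp from the start), had 20.5, 75.01, 0 and 4.64 tags in the female and 51.9, 18.3, 1.05 and 1.94 in the male libraries. Here too the female and male ranges overlapped, and mice 7, 8, 5 and 6 were near 0. The authors' deposited table gives it 3.27 (adjusted p = 8.53e-07, SE 0.58), with group values of 4.21 for IL-33 and 0.83 for vehicle. The neighbour in intron 4 rose by 2.79 (adjusted p = 0.000299) per the authors' deposited table. In intron 6, 1 region rose by 2.22 (adjusted p = 0.00329) per the authors' deposited table, and another has a group value of 2.79 for IL-33 and is listed at 0 for vehicle. These intron regions are low, with means of 6.2 to 21.7 tags over all libraries. The upstream region (chromosome 2, 34976399 to 34976899) was stronger, with 158, 177, 75.3 and 65.0 tags in the female and 81.8, 75.6, 41.9 and 46.5 in the male libraries, and rose by 1.04 (adjusted p = 0.00247, SE 0.28) per the authors' deposited table. Its neighbour at 34977109 had a similar level, 98.8 tags on average, and a value of 0.37 (adjusted p = 0.329) per the authors' deposited table.

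Traf3 had 1 risen region, 6.2 kb upstream of the start in an exon of the noncoding RNA gene 4930595D18Rik (chromosome 12, 111159894 to 111160394). Female libraries had 79.2, 87.1, 33.5 and 32.5 tags there and male libraries 91.8, 74.5, 39.8 and 29.1. The female and male values were alike in range, high in mice 3, 4, 1 and 2. The authors' deposited table gives it 1.20 (adjusted p = 0.00163, SE 0.31), with group values of 5.40 for IL-33 and 4.13 for vehicle. The other 4 tested Traf3 regions lie 57.1 to 59.6 kb upstream in introns of Rcor1, which encodes a subunit of the CoREST repressor complex, with values of -0.97 to -0.18 per the authors' deposited table and none past the threshold. The 100.8 kb body of Traf3 held 1 region named for the gene, the promoter, and 2 named for 4930595D18Rik.

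No Traf5 region was called. Its 11 tested regions, most of them in intron 1, had a median log2 fold change of -0.13 and a range of -1.39 to 0.19 per the authors' deposited table. The lowest value, at 192070730 on chromosome 1, had an adjusted p of 0.0687 per the authors' deposited table and was the only Traf5 region with an unadjusted p under 0.05 there (p = 0.0139). The strongest Traf5 region, 13.2 kb into intron 1 (192079128 to 192079628), had 161, 290.3, 215 and 232 tags in the female and 91.8, 109, 115 and 186 in the male libraries. Its value was -0.23 (adjusted p = 0.585, SE 0.24) per the authors' deposited table, with group values of 6.22 for IL-33 and 6.49 for vehicle. Its level thus lay above that of the Traf5 promoter, with no change past the threshold, which does not show the region to be unaffected.

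The ligase genes Birc2 and Birc3 lie side by side on chromosome 9, and their regions differed in kind. Birc2 carried the mark at its start site and nowhere else at a comparable level: its 3 regions within 1000 bp averaged 50.1 to 194 tags and its other 8 regions 0.125 to 2.32 tags. Of those 8 regions, 1 lies in an intron of Birc3 and 1 at the end of that gene, so Birc2 is their nearest gene by start site only.

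Birc3 carried the mark at the start site and along intron 1. The tested region with the smallest adjusted p there (7868729 to 7869229, 4.2 kb from the start) had 167, 150.01, 78.0 and 55.7 tags in the female and 69.9, 79.0, 34.6 and 27.1 in the male libraries. Mice 3 and 4 were the highest females and mice 1 and 2 the highest males, and the sexes overlapped. The authors' deposited table gives it 1.21 (adjusted p = 0.0012, SE 0.31), with group values of 5.79 for IL-33 and 4.54 for vehicle, and its neighbour at 7867923 1.26 (adjusted p = 0.00576). The largest rise lay 5219 bp upstream of the start (7878139 to 7878639), at 2.45 (adjusted p = 0.00151, SE 0.63) per the authors' deposited table, on a low level of 9.93 tags on average. A further region 23.1 kb upstream passed the threshold per the authors' deposited table with a group value of 2.38 for IL-33, and is listed at 0 for vehicle. These upstream regions were found in the IL-33 peak set only. Of the tested Birc3 regions, 2 of 3 found in that set only and 2 of 2 found in both sets rose per the authors' deposited table.

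Closer to the Birc3 start, at 1.3 kb (7871656 to 7872156), a region outside the authors' deposited table varied more between mice than the promoter did. It had 217, 356, 44.6 and 18.6 tags in the female and 175, 148, 23.1 and 17.4 in the male libraries. The Birc3 promoter, about 1 kb away, ranged only between 97.4 and 259 tags. Because no treatment is given for a single mouse, the spread at this region was not tied to IL-33.

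**Figure D3:**
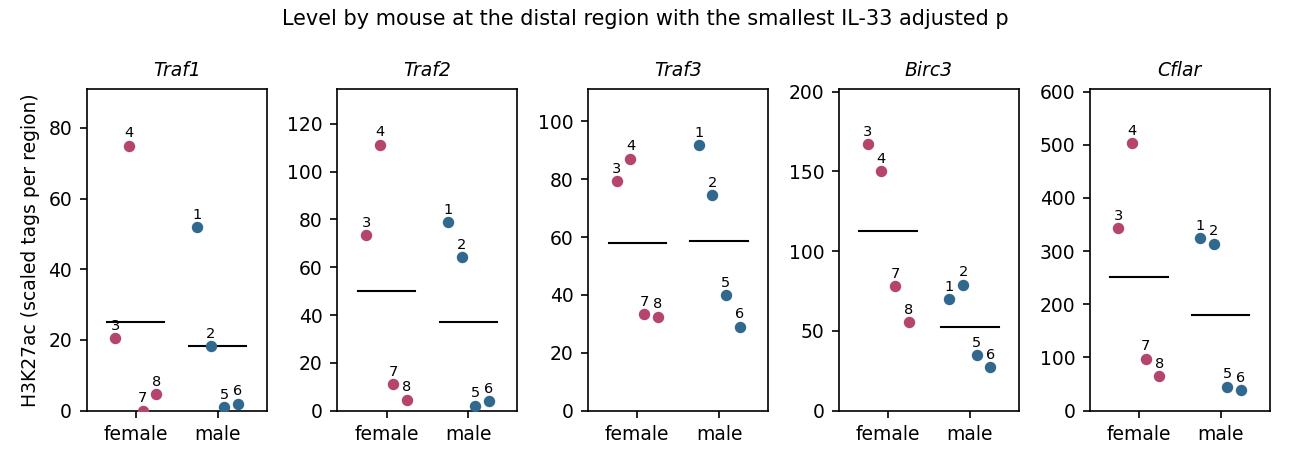
H3K27ac in each mouse (numbered points, scaled tags per region) at the distal region with the smallest IL-33 adjusted p of Traf1, Traf2, Traf3, Birc3 and Cflar, female left of male, with bars at the group means. Mice 3 and 4 lie above mice 7 and 8, and mice 1 and 2 above mice 5 and 6, in each panel; treatments of single mice are not in the labels.

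Cflar had the most risen regions, 17 of the 28. It spans 58711311 to 58758884 on chromosome 1 and holds 37 of its 38 regions within its bounds, and 21 of the 38 overlap another region and share reads with it. The region with the largest rise and the smallest adjusted p lies in intron 1 (58723148 to 58723648). It was found in the IL-33 peak set only. Female libraries had 343, 503, 97.6 and 65.0 tags there and male libraries 324, 314, 45.1 and 38.8. Mice 3, 4, 1 and 2 were several fold above the rest, and the sexes overlapped. The authors' deposited table gives it 2.59 (adjusted p = 5.54e-32, SE 0.21), with group values of 7.51 for IL-33 and 4.88 for vehicle. The next largest, at 58722141, was found in both peak sets and rose by 2.50 (adjusted p = 2.33e-22, SE 0.24) per the authors' deposited table. Of the tested Cflar regions found in the IL-33 peak set only, 10 of 13 rose per the authors' deposited table. Of those found in both sets 6 of 13 rose, and so did the 1 found in the vehicle set only, per the authors' deposited table.

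Position within the gene went with the size of the change. From 5.2 to 16.1 kb past the gene start, in introns 1 and 2, all 13 tested regions rose, with a median of 1.54 and a range of 0.95 to 2.59 per the authors' deposited table. Some of those 13, among them the region with the largest rise, were found in the IL-33 peak set only and so were picked on the IL-33 side. From 22.6 to 50.3 kb, 4 of 14 tested regions rose, with a median of 0.40 per the authors' deposited table. Those 4 were both tested regions of intron 5 and 2 of 7 in intron 7, while neither region of intron 4 nor that of intron 6 passed the threshold per the authors' deposited table. The split was placed after the values were seen and carries no test. Within intron 7, close neighbours gave 0.90 (adjusted p = 1.85e-05, SE 0.18) at 58744037, 0.18 (adjusted p = 0.625, SE 0.20) at 58744539 and 1.15 (adjusted p = 4.4e-06, SE 0.22) at 58744937 per the authors' deposited table. The difference between these neighbours was not tested.

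**Figure D4:**
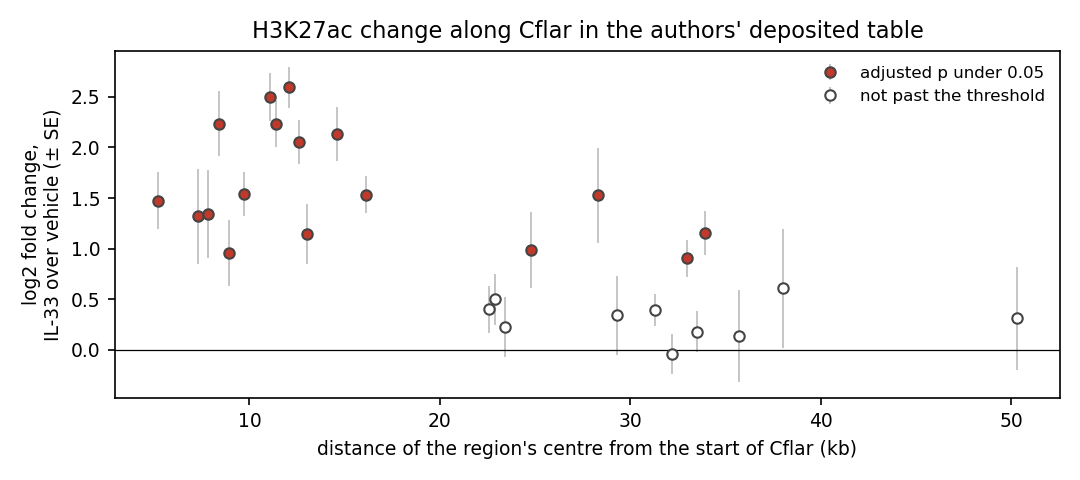
Log2 fold change of IL-33 over vehicle (± SE) for the 27 tested Cflar regions, from the authors' deposited table, against distance of the region's centre from the gene start in kb; filled points have an adjusted p under 0.05. All points up to 16.1 kb are filled, and 4 of the 14 points beyond 22 kb are.

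The strongest region of all 110 sits between these stretches, in Cflar intron 2 (58727640 to 58728140), 2.7 kb from an annotated internal start site and hence outside the authors' deposited table. It had 801, 1026, 262 and 195 tags in the female and 669, 530.3, 175 and 157 in the male libraries. Its adjacent tested neighbour at 58727142 rose by 1.53 (adjusted p = 1.21e-14, SE 0.18) per the authors' deposited table. The promoter, by contrast, kept to 289 to 472 tags over the same mice.

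Female and male libraries were compared by limma on log2(scaled tags + 1). The labels' grouping by sex coincides with 1 header date and dual index reads for the female libraries and another date and single index reads for the male ones, so sex and library batch cannot be told apart, and no batch holds both sexes. The spread within a sex includes any effect of IL-33. Of 77 regions of these genes with at least 10 tags on average, 1 was lower and 0 were higher in female libraries at a limma adjusted p under 0.05, where 1.87% and 0.15% of all 53348 tested regions were. At an unadjusted limma p under 0.05, 10 of the 77 regions lay higher and 2 lower in female libraries. The share of all tested regions at that threshold was not computed, so these counts do not set the genes apart. At an adjusted p under 0.05, edgeR and DESeq2 on whole reads also called 1 lower and 0 higher. The median female minus male difference was 0.35 over the 77 regions and 0.22 over all tested regions, a general shift that became -0.09 with TMM factors.

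The region called lower was the Traf3 promoter (chromosome 12, 111166148 to 111166648). As shown above, only 1 of the 4 female libraries had reads there, and the groups did not overlap. The means were 2.20 ± 4.40 tags in female and 122 ± 46.1 in male libraries (SD, n = 4 each), a log2 difference of -6.05 (SE 0.77, limma adjusted p = 0.00149) that depends on the added 1. The female libraries held 3 reads there and the male libraries 416, and relative to all tags the female to male ratio was 0.0182 with a 95% exact interval of 0.00373 to 0.0534, which covers counting error only. At 3 reads, the count that 0 reads allow, the level would be 7.26, 8.36 and 13.9 tags in mice 4, 7 and 8. Over 16 alternative settings the difference stayed between -6.87 and -4.23, with adjusted p-values of 7.45e-09 to 0.0203.

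Just 1.1 kb upstream of the same start (111165054 to 111165554), female libraries had 76.3, 140.3, 50.2 and 32.5 tags and male libraries 65.9, 97.4, 22.0 and 54.3. The female and male values overlapped there, unlike at the start site. Base composition moved with the female deficit among start site regions, and regions without a start site window were not classed. Of start site regions that overlap a window by at least 150 bp, 59.4% of the 170 regions with at least 80% G and C were called lower in female libraries, with a median difference of -2.79. The share was 29.0% of 480 regions at 75 to 80%, 9.55% of 963 at 70 to 75% and 3.85% of 3197 at 60 to 70%. From 50 to 60% it was 0.628% of 2707 regions, from 40 to 50% 0.603% of 829 regions, and below 40% 0 of 50 regions. The Traf3 window, at 84.0%, belongs to the highest class, while the promoters of Birc2, Traf2 and Traf5, at 60 to 70%, differed by 0.44, -0.22 and 0.41 and those of Cflar and Birc3 by 0.40 and 0.51, none past the threshold. The part of base composition in the Traf3 result was not tested.

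**Figure D5:**
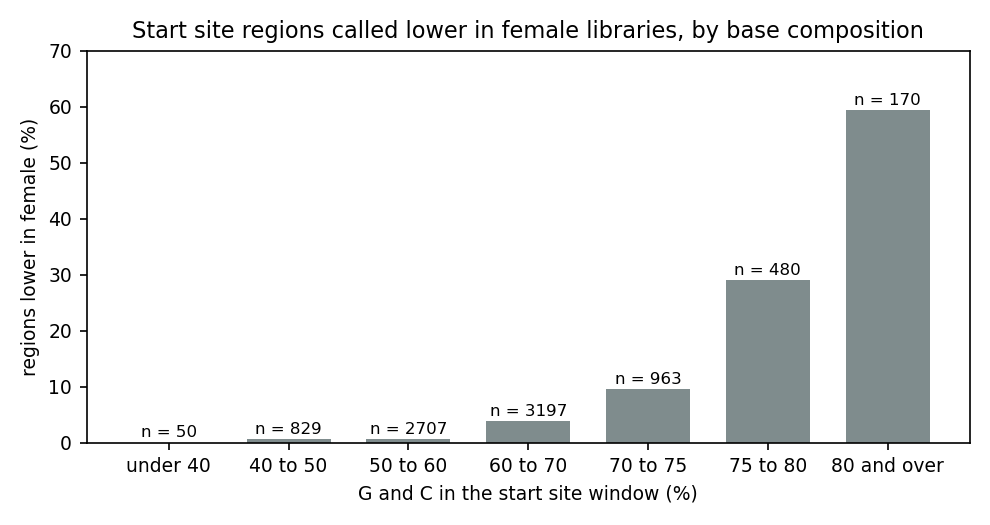
Share of start site regions called lower in female than in male libraries (limma adjusted p under 0.05, in %) by G and C content of the 300 base start site window, with the number of regions above each bar. The share is below 1% up to 60% G and C and reaches 59.4% in the class that holds Traf3.

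For the other 6 genes, the regions with the smallest limma p did not pass the threshold. In Cflar intron 7 (58742339 to 58742839) the female libraries had 411, 554, 376 and 427 tags and the male libraries 358, 277, 240.1 and 203. The groups did not overlap, with a difference of 0.73 (SE 0.21, limma adjusted p = 0.136). They did not overlap either at Birc2 7836287 or at Traf5 192087024 (limma adjusted p = 0.361 and 0.288). The share of all tested regions without overlap was not computed, so a lack of overlap alone sets no region apart. The intron 1 region of Traf5 at 192079128, given above, differed by 0.86 (SE 0.27, limma adjusted p = 0.174), with overlapping groups. The remaining differences were 1.08 at Birc3 (7868729, limma adjusted p = 0.316), 0.51 at Birc2 (7836287, 0.361), 0.87 at Traf1 (34976399, 0.365) and -0.22 at the Traf2 promoter. Over 16 alternative settings these differences ranged from 0.40 to 0.87 at Cflar, 0.53 to 1.06 at Traf5, 0.76 to 1.37 at Birc3, 0.19 to 0.61 at Birc2, 0.55 to 1.11 at Traf1 and -0.54 to -0.04 at Traf2, none with an adjusted p under the threshold.

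The partners of these proteins were followed through 7 lists with 66 genes, of which 34 had a tested region. Over the lists, 30 of 245 tested regions rose (12.2%) and 19 fell (7.76%) per the authors' deposited table, close to the shares over all tested regions, with a median of 0.08. TNF-type receptors that bind TRAFs had 13 rises (22.0%) and 4 falls (6.78%) among 59 regions, beside 10.2% and 7.99% of all tested regions of the authors' deposited table. Tnfrsf1b, the gene of TNF receptor 2, which recruits TRAF2 directly, had 8 rises and 3 falls of 28 tested, the largest rise 2.82 (adjusted p = 6.39e-05, SE 0.60) per the authors' deposited table. Tnfrsf11a, which encodes RANK, had 3 rises of 16 with 1.32 the largest, Tnfrsf8, which encodes CD30, 2 of 2 with 2.02, and Tnfrsf13b, which encodes TACI, 1 fall at -0.79 per the authors' deposited table.

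Among the kinases below the TRAFs and their adaptors, 14 of 111 regions rose (12.6%) and 11 fell (9.91%) per the authors' deposited table, shares near those over all tested regions. Ikbke, which encodes IKK epsilon, had 14 rises of 28 tested regions, the largest rise 2.86 (adjusted p = 4.13e-07, SE 0.49) per the authors' deposited table. Its close relative Tbk1 had 4 falls of 10, the largest -1.68 (adjusted p = 4.94e-10, SE 0.24) per the authors' deposited table. Map3k7, the gene of the kinase TAK1, had 3 falls of 15 with -1.50 the largest, and Tab2, which encodes its ubiquitin-binding partner, 3 of 29 with -1.72 per the authors' deposited table. No difference between these genes was tested.

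In the remaining lists, ubiquitin ligases and deubiquitinases had 3 rises (10.7%) and 1 fall (3.57%) among 28 regions, the share of rises near that over all tested regions, with rises at Otud7b (1.62), Spata2 (1.54) and Otulin (1.35) and a fall at a second Otulin region (-1.89) per the authors' deposited table. The noncanonical arm, which TRAF3 restrains, had 0 rises and 1 fall (7.14%) among 14 regions, near the share of falls over all tested regions, at Chuk (-1.44), which encodes IKK alpha, per the authors' deposited table. At an unadjusted p under 0.05, the noncanonical list had 0 regions above and 2 below 0 per the authors' deposited table. For all tested regions the share at that threshold was not computed, so these unadjusted counts do not set the list apart. The other TRAFs and TRAF binding proteins had neither rise nor fall among 6 regions, and the other IAPs among 4 regions, per the authors' deposited table, also at an unadjusted p under 0.05.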

How the data were processed

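H3K27ac libraries of 8 mice were used, and the 4 male inputs have no values in the tables and were not analysed here. Reads were handled with Bowtie2 and HOMER on mm10 (GRCm38), per the submitters' processing notes, with versions not given in the sources used here. A first table deposited by the authors holds a normalised signal, per the file headers tags scaled to 10000000 per library, for regions of 500 bp. A second table deposited by the authors holds, per the file headers, log2 fold changes and group values on a log2 scale, scores (mean level and standard error), p-values and adjusted p-values for IL-33 against vehicle. Neither its tool nor the mice in its groups are named in those sources. Its sign was read from the difference of its group values, which followed the fold change with a correlation of 0.981 over regions that are not independent replicates. Dividing by the scaling factors gave whole reads, within 0.01, for 100% of values.

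Regions were taken by nearest gene and joined by region ID. Female and male libraries were compared with limma 3.58.1 (mean-variance trend, log2 of scaled tags plus 1, mean of at least 10 tags, Benjamini-Hochberg over all regions tested), with edgeR 4.0.16 and DESeq2 1.42.0 on whole reads as alternatives, in R 4.3.3. The limma script was tested on simulated data. No pair of libraries of a sex was a second deposit (chi-square per degree of freedom 1.77 to 7.02).

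Genes and lists were chosen with earlier results of these data known. For each gene the text names the region nearest the start site, the tested region with the smallest IL-33 adjusted p, the largest called change and the region with the smallest limma p. Partner genes are named where they had the most calls or the largest change of their list. The calls of the cell death list are not reported here. The 1.3 kb region of Birc3, the regions around it and inside Cflar introns 2 and 7, the low Traf5 value, the further Traf1, Traf3 and Birc3 regions and the classes of base composition were chosen after their values were seen. Positions are those of the deposited tables on mm10, and gene bounds, names and windows are RefSeq on GRCm38.p6, in which all 7 symbols matched.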

Additional observations from a re-analysis of the deposited data

Results flagged for a closer look

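The Traf3 promoter in female mouse 3 stood apart from the other 3 female libraries, with 8.80 scaled tags against 0 in each of mice 4, 7 and 8. The value rests on 3 reads, so the gap to the next female library is the whole range of the group. It was the only one of 36 groups of 4 libraries checked in which 1 library lay this far from the others. With the other 3 libraries tied at 0, any read in mouse 3 gives this gap. The usual rate of about 1 such group in 20 therefore does not apply.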

How the results depend on the processing

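Of 198 alternative values, 176 were counted as the same, 22 as moved and none as reversed. Region differences counted as the same if direction and side of the threshold held, and counts if within 1.5 times the reported count. Neither rule covers the median of 0.61, which was counted as the same at 0.93, taken over the genes' own medians, and as moved at 0.23. A changed minimum mean leaves a region's log2 difference as it was by construction. Over regions found in both peak sets only, the rises of these genes numbered 10 instead of 28. Leaving out Cflar, an alternative that was chosen after seeing the data, gave 11 rises and a median of 0.23 instead of 0.61. At an adjusted p under 0.1, 1 region of these genes fell instead of 0. At an adjusted p under 0.01, 1830 distal regions of the whole table fell instead of 3226. Regions lower in female libraries numbered 998, against 1631 with TMM factors, 1573 with quantile normalisation and 1873 with DESeq2, and 473 to 1388 when 1 library was left out. Regions higher in female libraries numbered 80, against 27 with TMM factors, 47 with quantile normalisation, 48 with edgeR and 22 to 205 when 1 library was left out. Without any 1 male library 473 to 544 regions were lower. Higher calls numbered 205 without female mouse 3 and 22 to 35 without female mouse 7 or 8 or any 1 male mouse. The Traf3 promoter was called lower under all 16 alternatives. The cause of these moves was not tested, beyond the smaller sets of regions and libraries by construction. No paired analysis was possible because the inputs that share mouse numbers with the male H3K27ac libraries have no values in the tables, and female and male mice share no number. Likeness between a distal region and its promoter over the libraries is not given, since the values of the libraries fall into separate clusters. Depth limits the precision at weak regions, since the median region held 2 to 4 reads in female libraries.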

Other observations

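Peak sets differed between these genes and the whole table. Of the 110 regions, 44 (40%) were found in the IL-33 peak set only, 5 (4.55%) in the vehicle set only and 61 (55.5%) in both, beside 18.8%, 8.86% and 72.3% of all regions. Cflar supplied 16 of the 44 regions of the IL-33 set only, Traf1 8, Birc2 7, Birc3 6, Traf2 and Traf5 3 each and Traf3 1. The 7 Birc2 regions of that set had at most 2.32 tags on average. Presence in a peak set, which need not be a set of H3K27ac peaks, thus did not mean a strong mark.

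Between 1000 and 3000 bp from a start site, 15 regions carry values per library and no IL-33 comparison. At Birc3, 2.1 kb from the start (7870796), female libraries had 191, 128, 19.5 and 18.6 tags in mice 3, 4, 7 and 8, and male libraries 135, 124, 16.8 and 27.1 in mice 1, 2, 5 and 6. In Cflar intron 2 (58728359), female libraries had 161, 256, 75.3 and 65.0 tags and male libraries 241, 152, 34.6 and 32.9. At 1 Birc3 region 41.5 kb upstream, found in both peak sets, every library is at 0. A Traf3 region in an intron of Rcor1 (111108716) had 17.6, 14.5, 16.7 and 27.8 tags in female and 2.99, 1.15, 6.29 and 5.81 in male libraries, without overlap, with a limma difference of 2.11 (SE 0.75, adjusted p = 0.235). As said above, the share of all tested regions without overlap was not computed. These regions were chosen after their values were seen.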
